A study of Mus musculus with 8 samples.

Results

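Cxcr5, Pdcd1, Icos, Cd40lg, Btla and Cd200 encode 6 surface proteins by which T follicular helper (Tfh) cells find the B cell follicle and exchange signals with B cells. The genes were taken by symbol, and their 6 rows were found among the 16735 genes present in both count tables. All 6 stayed among the 14418 genes tested. Messenger RNA was measured by bulk RNA-seq in 8 libraries of sorted mouse Tfh cells, in 4 groups of 2 libraries. The groups were ZsGreen+ cells of Peyer's patch, ZsGreen− cells of Peyer's patch, ZsGreen+ cells of spleen and ZsGreen− cells of spleen. All mice were K/BxN, a strain that develops autoimmune arthritis by itself, and carried a fate-mapping reporter that leaves the fluorescent protein ZsGreen in cells with a past in the Th17 lineage. Every group was enriched for CD4+ T cells and sorted as TCRβ+, CD25−, CXCR5+ and PD-1+, so that the gates differed in ZsGreen alone, and the labels call the ZsGreen− sort the control. The sources used here do not give the driver of the reporter, the age of the mice or whether animals were pooled. Replicate 1 of every group was part of experiment 1 and replicate 2 part of experiment 2, and the labels tie the experiments to separate tables.

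CXCR5 is the receptor for the follicular chemokine CXCL13 and draws T cells out of the T zone. ICOS binds ICOSL on B cells and drives PI3K signalling, and CD40L, the product of Cd40lg, engages CD40 to keep germinal centre B cells alive and switching class. PD-1 (Pdcd1) and BTLA recruit the phosphatases SHP-2 and SHP-1 to restrain T cell signalling, while CD200 acts as a ligand that quiets cells bearing its receptor CD200R. CXCR5 and PD-1 protein were used to sort the cells. Their mRNA was therefore compared among cells that had already passed a gate for the protein.

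By the files' own coordinates, which follow mm39 as named in the submitters' processing notes, Cxcr5 (ENSMUSG00000047880) lies on chromosome 9 from 44423084 to 44473174 on the minus strand. Pdcd1 (ENSMUSG00000026285) spans 93966027 to 93980278 of chromosome 1 on the minus strand, and Icos (ENSMUSG00000026009) spans 61017086 to 61039479 of the same chromosome on the plus strand. Cd40lg (ENSMUSG00000031132) is X-linked, from 56257503 to 56269402 on the plus strand. Btla (ENSMUSG00000052013) covers 45044678 to 45078033 of chromosome 16 on the plus strand, and Cd200 (ENSMUSG00000022661) covers 45202498 to 45229416 on its minus strand. Btla and Cd200 are thus neighbours, 124 kb apart. Cxcr5 overlaps Bcl9l on the opposite strand, over 3.3% of the Cxcr5 exon length in GENCODE vM21. Bcl9l had a mean count of 1115, against 6715 for Cxcr5. The span of Icos holds Gm37039, with a mean count of only 39.25 against 8201 for Icos. The library notes name a non-directional preparation without tying it to libraries, so reads of such pairs cannot be told apart by strand.

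Upstream sequence is shown for the 3 members present in the RefSeq promoter table (build GRCm38.p6), because several regulators described further on act through E-boxes, the CANNTG element bound by basic helix-loop-helix factors such as Ascl2 and the E proteins that Id2 and Id3 block. Cxcr5, Icos and Cd40lg had no entry. Each line holds the 250 bases before the annotated start, 5′ to 3′ on the gene's strand, with E-boxes in capitals. The regions are chr1:94052554-94052803 (minus strand) for Pdcd1, chr16:45224087-45224336 (plus strand) for Btla and chr16:45409054-45409303 (minus strand) for Cd200.
Pdcd1: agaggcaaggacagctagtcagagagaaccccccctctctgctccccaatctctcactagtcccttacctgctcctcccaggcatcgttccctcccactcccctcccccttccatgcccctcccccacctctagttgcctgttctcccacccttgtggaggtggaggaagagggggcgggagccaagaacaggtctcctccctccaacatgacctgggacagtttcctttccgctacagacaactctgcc
Btla: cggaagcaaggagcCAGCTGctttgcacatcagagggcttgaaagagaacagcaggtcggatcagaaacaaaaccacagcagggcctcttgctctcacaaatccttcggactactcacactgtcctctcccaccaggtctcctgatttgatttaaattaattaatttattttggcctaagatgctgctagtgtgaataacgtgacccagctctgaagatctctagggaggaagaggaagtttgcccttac
Cd200: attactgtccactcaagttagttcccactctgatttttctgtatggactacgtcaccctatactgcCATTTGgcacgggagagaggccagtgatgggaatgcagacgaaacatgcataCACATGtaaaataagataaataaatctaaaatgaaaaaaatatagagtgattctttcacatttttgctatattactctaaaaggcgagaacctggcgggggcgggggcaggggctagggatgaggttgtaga
The window of Pdcd1 held 0 E-boxes, that of Btla 1 and that of Cd200 2. An E-box, which reads alike on both strands, was present in 66.22% of all 32851 promoter windows of this length. GGAAA, the core of the element bound by NFAT, was searched on both strands and occurred 2 times in Pdcd1 and 0 times in the other two windows, against 55.57% of all windows with at least 1 match. No window held both motifs, so no matches overlapped.

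Total estimated counts per library ran between 10009823 and 15323743. The experiment term of the fit was called for 71.1% of the genes tested (edgeR quasi-likelihood test, Benjamini-Hochberg adjustment). T cell genes were abundant in every library (Cd4 at 673 to 1356 CPM, the TMM-scaled share of a library's counts), and so was Il21, a Tfh cytokine gene (125 to 310 CPM). Other genes that define Tfh cells ranged more widely, Bcl6 from 16.6 to 244 CPM and Sh2d1a from 61.5 to 880 CPM. Cd8a did not exceed 0.871 CPM. Of the B cell markers, Ms4a1 did not exceed 4.33 CPM and was at 0 in 2 libraries, but Ighm reached 714 CPM.

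Across the 4 groups the 6 genes behaved in different ways. Cxcr5 set the groups apart in both experiments, with a 6.18-fold range between the highest and lowest group in experiment 1 and a 7.67-fold range in experiment 2. Cd40lg spanned only 1.49-fold in experiment 1 and 1.25-fold in experiment 2. Btla spanned 1.27-fold and 1.80-fold in experiments 1 and 2, Icos 2.83-fold and 1.52-fold, Cd200 2.32-fold and 2.07-fold, and Pdcd1 1.74-fold and 3.12-fold.

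**Figure D1:**
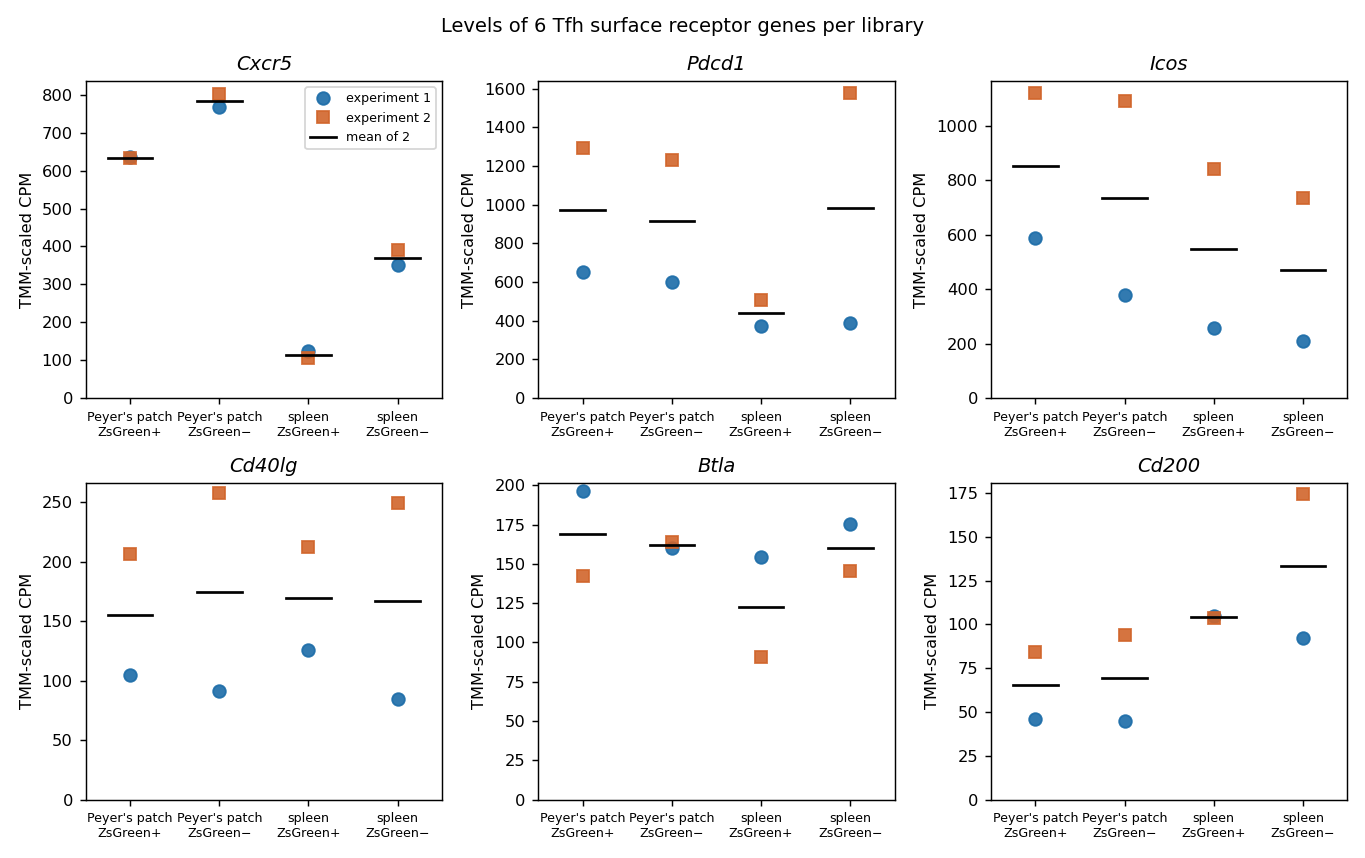
TMM-scaled CPM of each gene (y axis, from 0) in each of the 4 groups (x axis), with circles for the library of experiment 1, squares for that of experiment 2 and bars for the mean of both. The points of Cxcr5 nearly coincide within a group, whereas those of Icos and Cd40lg lie far apart, with every experiment 2 library above its experiment 1 partner.

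Expressed per kilobase of exon, a scale that allows genes to be compared, Pdcd1 was the most abundant member in every library, at 194 to 818 CPM per kb. It made up 34.2% to 56.6% of the sum of the 6 genes in a library. Cxcr5 was 0.284 to 0.742 of the Pdcd1 level in Peyer's patch libraries and 0.120 to 0.526 of it in spleen libraries. Cd200 lay at 13.6 to 52.5 CPM per kb and Btla at 26.8 to 57.8, and 1 of these 2 genes was the least abundant member in each library.

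The sort contrast in spleen asks how Tfh cells with a Th17 past differ from other Tfh cells of the same organ. Cxcr5 fell in ZsGreen+ cells, and none of the other 5 genes was called. Cxcr5 had 124 CPM (experiment 1) and 105 CPM (experiment 2) in ZsGreen+ libraries, against 351 and 390 CPM in the ZsGreen− libraries. Both ZsGreen+ libraries lay below both ZsGreen− libraries, and the replicates of a group differed far less than the groups. The log2 fold change was -1.69 ± 0.17 (SE; 95% interval -2.06 to -1.33), a fold of 0.309, with an edgeR quasi-likelihood adjusted p of 0.000127. Within experiment 1 the log2 difference was -1.50 and within experiment 2 it was -1.90. The call held with each library left out in turn, and was lost when the experiment block was removed (-1.70, adjusted p = 1 by edgeR), a fit in which 0 genes were called in any contrast. Here 1 of 6 members was called, against 8.62% of all genes tested.

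Bulk libraries cannot tell fewer cells expressing a gene from less RNA per cell, and markers of other T cell states moved with Cxcr5 in spleen. Of 6 regulatory T cell and follicular regulatory (Tfr) markers 4 fell in ZsGreen+ cells and 2 rose, where 8.62% of all genes tested were called. Foxp3 (-1.90, edgeR adjusted p = 0.00292), Ikzf4 (-1.89), Ikzf2 (-1.73) and Gpr83 (-1.67) fell. Il2ra (2.03, adjusted p = 0.0088) and Tnfrsf9 (0.54, adjusted p = 0.0179) rose. The 6 markers summed to 264 to 277 CPM in ZsGreen+ libraries and 464 to 474 CPM in ZsGreen− libraries. Ikzf2 alone had 147 and 62.2 CPM in ZsGreen+ and 339 and 299 CPM in ZsGreen− libraries. Of 8 naive T cell markers 6 fell and 1 rose, with sums of 642 to 742 CPM in ZsGreen+ and 1048 to 1132 CPM in ZsGreen− libraries. The B cell list summed to 158 to 236 CPM in ZsGreen+ and 251 to 754 CPM in ZsGreen− libraries, with 2 of 11 members lower (Cd22 and Ighm) and 0 higher. Without Ighm the list summed to 33.8 and 66.8 CPM in ZsGreen+ and 49.2 and 40.4 CPM in ZsGreen− libraries. Ms4a1, the CD20 gene, was at 0 in both ZsGreen− libraries. Of 8 genes that define T cells and Tfh cells 3 fell in ZsGreen+ cells and 0 rose (median -0.65). They were Slamf6 (-1.18, edgeR adjusted p = 0.00298), Sh2d1a, the SAP adaptor gene (-1.04, adjusted p = 0.0229), and Cd3e (-0.83, adjusted p = 0.0426). Slamf6 lost its call with spleen ZsGreen+ replicate 2 left out (0.0706), and Sh2d1a with spleen ZsGreen+ or ZsGreen− replicate 2 left out (highest 0.207). Cd3e lost its call for 5 of the 8 libraries left out, both of Peyer's patch ZsGreen−, both of spleen ZsGreen+ and spleen ZsGreen− replicate 2 (highest 0.284). The part of these cells in the Cxcr5 result was not tested.

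Pdcd1 had 374 CPM (experiment 1) and 505 CPM (experiment 2) in spleen ZsGreen+ libraries, against 386 and 1578 CPM in ZsGreen− libraries. The sorts lay close together in experiment 1 and far apart in experiment 2, where the ZsGreen− library held the highest TMM-scaled Pdcd1 value of the 8. Without TMM factors that library had 1035 CPM, below the 1254 CPM of Peyer's patch ZsGreen+ replicate 2. The log2 fold change was -0.88 ± 0.33 (edgeR adjusted p = 0.16), with within-experiment values of -0.05 and -1.64. Leaving out spleen ZsGreen− replicate 1 gave -1.43 (adjusted p = 0.00139), and DESeq2 gave -0.84 (adjusted p = 0.0488). A lower Pdcd1 in spleen ZsGreen+ cells thus rests on experiment 2.

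Btla had 154 and 90.9 CPM in spleen ZsGreen+ libraries, against 175 and 145 CPM in ZsGreen− libraries. It was lower in ZsGreen+ cells within each experiment (-0.18 and -0.68), but the groups overlapped and the log2 fold change of -0.41 ± 0.17 did not pass (edgeR adjusted p = 0.189). Its neighbour Cd200 had 105 and 104 CPM in ZsGreen+ libraries, against 92.3 and 174 CPM in ZsGreen− libraries. The experiments went in opposite directions for Cd200 (0.18 and -0.75), and the pooled value was -0.24 ± 0.24 (edgeR adjusted p = 0.621). Leaving out spleen ZsGreen+ replicate 1 gave -0.77 (edgeR adjusted p = 0.039), and leaving out its replicate 2 gave 0.20.

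Icos and Cd40lg, which deliver help to B cells, were not called between the sorts in spleen. Icos had 259 and 840 CPM in ZsGreen+ libraries, against 208 and 736 CPM in ZsGreen− libraries, slightly higher in ZsGreen+ cells within each experiment. Its log2 fold change was 0.25 ± 0.21, with a 95% interval of -0.22 to 0.72 (edgeR adjusted p = 0.556). Cd40lg had 126 and 213 CPM in ZsGreen+ libraries, against 84.6 and 249.6 CPM in ZsGreen− libraries, higher in experiment 1 and lower in experiment 2. Without TMM factors it was higher in ZsGreen+ libraries in both experiments, with 154 and 174 CPM against 104 and 164 CPM. Its log2 fold change was 0.18 ± 0.19, with an interval of -0.25 to 0.60 (edgeR adjusted p = 0.656).

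**Figure D2:**
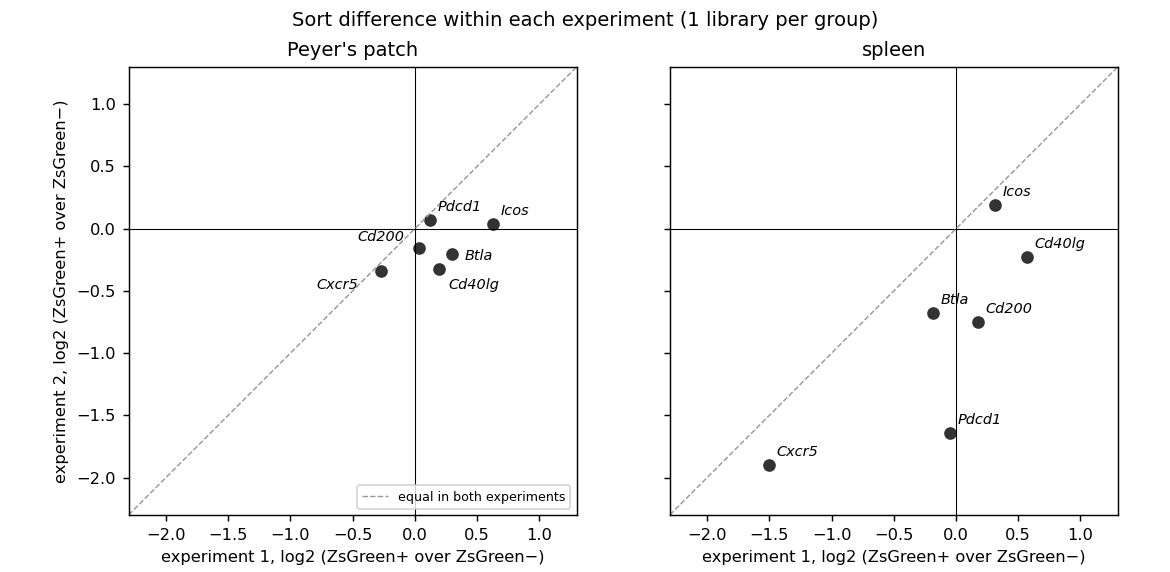
Log2 difference of ZsGreen+ over ZsGreen− cells in experiment 1 (x axis) and experiment 2 (y axis) for each of the 6 genes, in Peyer's patch (left) and spleen (right), with 1 library per group in each experiment and the dashed line marking equal values. In spleen Cxcr5 is low in both experiments (-1.50 and -1.90), while Pdcd1 is low in experiment 2 alone (-0.05 and -1.64).

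In Peyer's patch the same sort contrast called 0 of 6 members, against 0.437% of all genes tested. By edgeR 0 members had an unadjusted p under 0.05, against 1172 of the 14418 genes tested. DESeq2 also called 0 members, and 1 had an unadjusted p under 0.05, against 1059 of all genes. Cxcr5 had 636 and 633 CPM in ZsGreen+ libraries, against 767 and 802 CPM in ZsGreen− libraries. The ZsGreen+ libraries were again the lower ones and the groups did not overlap. Without TMM factors they did overlap, although ZsGreen+ was lower within each experiment (786 against 942 CPM and 614 against 671 CPM). The log2 fold change of Cxcr5 was only -0.31 ± 0.16, with a 95% interval of -0.66 to 0.05 (edgeR adjusted p = 0.687). Pdcd1 had 652 and 1292 CPM in ZsGreen+ libraries, against 599 and 1231 CPM in ZsGreen− libraries, a log2 fold change of 0.10 ± 0.32 (edgeR adjusted p = 0.971). Icos had 588 and 1120 CPM in ZsGreen+ libraries, against 380 and 1093 CPM in ZsGreen− libraries, or 0.36 ± 0.21 (edgeR adjusted p = 0.735). The Icos difference was 0.63 in experiment 1 and 0.04 in experiment 2, and leaving out the ZsGreen+ library of experiment 1 gave -0.04.

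On the TMM scale Cd40lg, Btla and Cd200 each had opposite signs in the experiments in Peyer's patch. Cd40lg had 105 and 206 CPM in ZsGreen+ libraries, against 91.4 and 257.7 CPM in ZsGreen− libraries. Btla had 196 and 142 CPM in ZsGreen+ libraries, against 160 and 164 CPM in ZsGreen− libraries. Cd200 had 46.2 and 84.2 CPM in ZsGreen+ libraries, against 45.1 and 93.7 CPM in ZsGreen− libraries. Without TMM factors only Cd40lg kept opposite signs (129 and 200 CPM in ZsGreen+ against 112 and 216 CPM in ZsGreen− libraries). Btla then had 242.6 and 137.9 CPM in ZsGreen+ against 196.4 and 137.3 CPM in ZsGreen− libraries. Cd200 had 57.0 and 81.7 CPM against 55.4 and 78.5 CPM. The pooled log2 fold changes of these 3 genes were -0.07, 0.04 and -0.07, and their widest 95% interval, that of Cd200, ran from -0.62 to 0.48.

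Whether the sort contrast itself differed between tissues was tested as spleen minus Peyer's patch. Cxcr5 gave -1.39 ± 0.23 (95% interval -1.89 to -0.89) with an unadjusted p of 6.41e-05 and rank 16 among all genes, and narrowly missed the threshold after adjustment (edgeR adjusted p = 0.0578). The values within the experiments were -1.23 and -1.55. The call depended on the processing. It was made by DESeq2 (adjusted p = 2.59e-08), without the low count filter (0.0129), with a stricter filter (0.0493), and when Peyer's patch ZsGreen+ replicate 2 (0.0439) or spleen ZsGreen− replicate 1 (0.012) was left out. Of the other members Pdcd1 had the most negative difference, -0.97 ± 0.46 (edgeR adjusted p = 0.638), which was -1.52 with spleen ZsGreen− replicate 1 left out (adjusted p = 0.0237). In all 0 of 6 members were called, against 0.0971% of all genes. By edgeR 1 of the 6 had an unadjusted p under 0.05, against 1223 of the 14418 genes tested.

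The tissue contrast within ZsGreen+ cells compares Peyer's patch with spleen among cells that share a Th17 past. Cxcr5 and Icos rose in Peyer's patch, 2 of 6 members against 12.7% of all genes tested. For Cxcr5 the 636 and 633 CPM of Peyer's patch stood against 124 and 105 CPM of spleen, with no overlap and a log2 fold change of 2.47 ± 0.17 (fold 5.55, edgeR adjusted p = 1.07e-05, rank 10). The within-experiment differences were 2.36 and 2.60. Icos, with 588 and 1120 CPM in Peyer's patch against 259 and 840 CPM in spleen, was higher in Peyer's patch in each experiment although the groups overlapped across experiments. Its log2 fold change was 0.82 ± 0.22 (edgeR adjusted p = 0.0266), made up of 1.18 in experiment 1 and 0.41 in experiment 2. Leaving out Peyer's patch ZsGreen+ replicate 1 gave 0.42 (adjusted p = 0.387). The call was also lost when Peyer's patch ZsGreen− replicate 1 (0.055) or spleen ZsGreen+ replicate 1 (0.242) or 2 (0.0859) was left out.

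The inhibitory members were not called in this contrast. Pdcd1, with 652 and 1292 CPM in Peyer's patch against 374 and 505 CPM in spleen, was higher in Peyer's patch in both experiments and the groups did not overlap, yet the log2 fold change of 1.04 ± 0.32 had an edgeR adjusted p of 0.0742. It passed by DESeq2 (adjusted p = 0.00938), in a fit of these 4 libraries alone (0.00189), and with spleen ZsGreen+ replicate 1 (0.0236), spleen ZsGreen− replicate 1 (0.000718) or spleen ZsGreen− replicate 2 (0.000616) left out. Btla had 0.48 ± 0.17 (edgeR adjusted p = 0.0974), and passed with spleen ZsGreen+ replicate 1 left out (0.76, adjusted p = 0.0492) and in the fit of 4 libraries (0.50, adjusted p = 0.0162). Cd200 had the opposite sign, with 46.2 and 84.2 CPM in Peyer's patch against 105 and 104 CPM in spleen, a log2 fold change of -0.78 ± 0.24 (edgeR adjusted p = 0.0727). It passed by DESeq2 (-0.82, adjusted p = 0.0146) and with spleen ZsGreen+ replicate 2 left out (-1.23, adjusted p = 0.00093). Cd40lg had -0.17 ± 0.19, with a 95% interval of -0.59 to 0.25 (edgeR adjusted p = 0.626).

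Within ZsGreen− cells, the tissue contrast called 1 of 6 members, against 5.49% of all genes. Cxcr5 had 767 and 802 CPM in Peyer's patch, against 351 and 390 CPM in spleen, and rose by 1.08 ± 0.16 on the log2 scale (fold 2.12, edgeR adjusted p = 0.00229), with 1.13 and 1.04 in experiments 1 and 2. Icos had 380 and 1093 CPM in Peyer's patch, against 208 and 736 CPM in spleen, a value of 0.71 ± 0.22 that did not pass (edgeR adjusted p = 0.0855). It passed by DESeq2 (0.0224), and with Peyer's patch ZsGreen+ replicate 1 (0.0437) or 2 (0.0188) or spleen ZsGreen− replicate 2 (0.0474) left out. Cd200 had 45.1 and 93.7 CPM in Peyer's patch, against 92.3 and 174 CPM in spleen, and was lower in Peyer's patch in both experiments (-1.03 and -0.89). Its fitted value was -0.96 ± 0.24 (edgeR adjusted p = 0.062), and it passed by DESeq2 (0.00511), in a fit of these 4 libraries alone (0.000493), in a fit with no robust dispersion (0.0429), and with spleen ZsGreen+ replicate 1 (0.00141) or 2 (0.00103) left out. Pdcd1 had 599 and 1231 CPM in Peyer's patch, against 386 and 1578 CPM in spleen, with opposite signs in experiments 1 and 2 (0.63 and -0.36). Btla had 0.03 (95% interval -0.35 to 0.41) and Cd40lg 0.08 (-0.35 to 0.50).

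**Figure D3:**
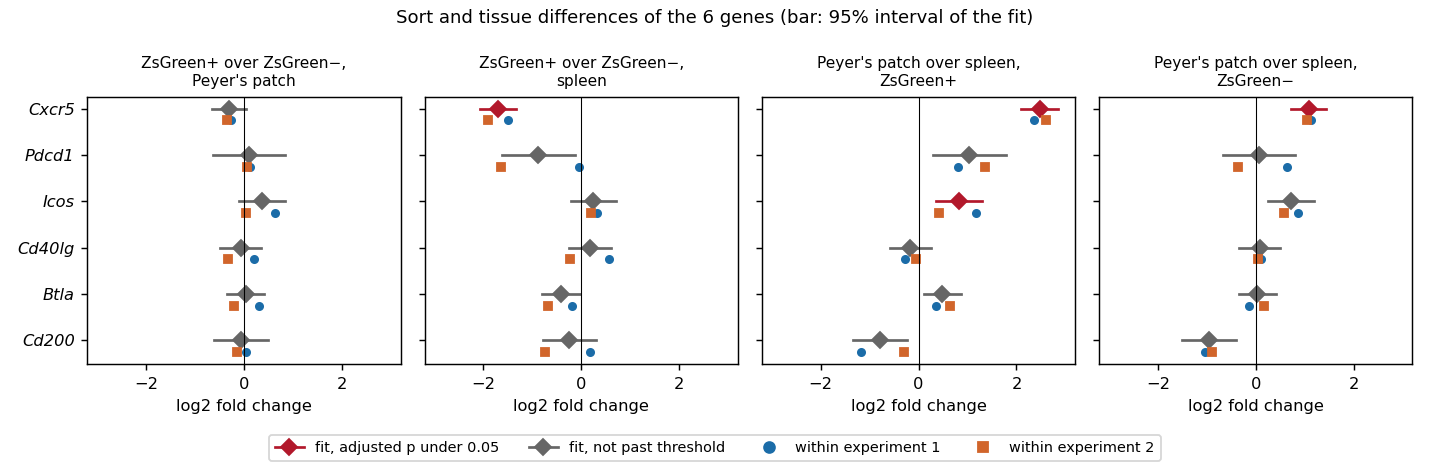
Log2 fold change (x axis) of the 6 genes (rows) in the 2 sort contrasts and the 2 tissue contrasts, with diamonds for the fitted value, horizontal bars for its 95% interval, circles for experiment 1 and squares for experiment 2. Red diamonds are the calls at an adjusted p under 0.05, which are Cxcr5 in 3 panels and Icos in 1.

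The order of the Cxcr5 levels was Peyer's patch ZsGreen− (784 CPM), Peyer's patch ZsGreen+ (634 CPM), spleen ZsGreen− (370 CPM) and spleen ZsGreen+ (114 CPM). Each group's TMM-scaled values lay outside the range of its neighbours, although the first pair was not called. Without TMM factors that pair overlapped, with 942 and 671 CPM in ZsGreen− and 786 and 614 CPM in ZsGreen+ libraries. Bcl9l, which overlaps Cxcr5, had -0.18 in the Peyer's patch sort and -0.64 in the spleen sort (edgeR adjusted p = 0.888 and 0.0500). In Peyer's patch over spleen it had -0.46 in ZsGreen+ and -0.93 in ZsGreen− cells (edgeR adjusted p = 0.13 and 0.0131). The part of Bcl9l reads in the Cxcr5 counts was not tested. For Pdcd1, spleen ZsGreen+ had the lowest mean, and its 374 to 505 CPM lay below its neighbour in the order, Peyer's patch ZsGreen− (599 to 1231 CPM), but overlapped spleen ZsGreen− (386 to 1578 CPM). Every other group of these 5 genes overlapped at least 1 neighbour in the order. Cd200 had the highest mean in spleen ZsGreen− (133 CPM) and the lowest in Peyer's patch ZsGreen+ (65.2 CPM). Icos had its highest mean in Peyer's patch ZsGreen+ (854 CPM) and its lowest in spleen ZsGreen− (472 CPM).

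Markers of other cells also moved between the tissues, where 12.7% of all genes tested were called among ZsGreen+ and 5.49% among ZsGreen− cells. Of 11 B cell markers tested, 5 rose in Peyer's patch among ZsGreen+ cells, and Pax5 (4.62) and Cd22 (2.57) had the smallest p. Among ZsGreen− cells Pax5 (2.78) was the 1 that rose, a call lost with spleen ZsGreen− replicate 1 left out (adjusted p = 0.228). The list summed to 417 and 561 CPM in Peyer's patch ZsGreen+ libraries, against 158 and 236 CPM in spleen ZsGreen+ libraries. Most of each sum was Ighm, with 257 and 534 CPM in Peyer's patch ZsGreen+ libraries and 125 and 170 CPM in spleen ZsGreen+ libraries. The other 11 of the 12 listed markers summed to 159 and 26.6 CPM in Peyer's patch ZsGreen+ libraries and 33.8 and 66.8 CPM in spleen ZsGreen+ libraries, higher in Peyer's patch in experiment 1 and lower in experiment 2. Among ZsGreen− cells the whole list summed to 477 and 701 CPM in Peyer's patch and 251 and 754 CPM in spleen. B cells carry Cxcr5 mRNA. In the 8 libraries Ms4a1 reached 4.33 CPM, Pax5 37.0 CPM, Cd22 51.6 CPM, Cd74 61.3 CPM and Ighm 714 CPM.

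Of the 8 naive T cell markers 1 rose and 5 fell in Peyer's patch among ZsGreen+ cells, and 0 rose and 4 fell among ZsGreen− cells. Their sums were 538 to 618 CPM in Peyer's patch and 642 to 742 CPM in spleen for ZsGreen+ cells, and 755 to 760 CPM in Peyer's patch and 1048 to 1132 CPM in spleen for ZsGreen− cells. Of the 6 regulatory T cell and Tfr markers 2 rose and 3 fell among ZsGreen+ cells, and 0 rose and 2 fell among ZsGreen− cells. Foxp3 fell in both ZsGreen+ (-4.22, edgeR adjusted p = 0.000101) and ZsGreen− cells (-2.88, adjusted p = 0.000399). It was near 0 in the Peyer's patch ZsGreen+ libraries, at 0.367 and 0.388 CPM. Among ZsGreen+ cells Il2ra (-2.27) and Tnfrsf9 (-1.62) also fell, while Ikzf2 (1.65, edgeR adjusted p = 0.0162) and Gpr83 (0.88, adjusted p = 0.0144) rose. The sums of this list were 280 to 511 CPM in Peyer's patch and 264 to 277 CPM in spleen for ZsGreen+ cells, and 330 to 341 CPM in Peyer's patch and 464 to 474 CPM in spleen for ZsGreen− cells. Most of each Peyer's patch sum was Ikzf2, with 468 and 194 CPM in ZsGreen+ and 274 and 230 CPM in ZsGreen− libraries. Of the 8 genes that define T cells and Tfh cells, 3 rose in Peyer's patch among ZsGreen+ cells, namely Sh2d1a (1.72), Bcl6 (1.49) and Slamf6 (1.04), with a list median of 0.46. The Bcl6 call was lost with Peyer's patch ZsGreen+ replicate 1 or spleen ZsGreen+ replicate 2 left out (highest adjusted p 0.0708), and the Slamf6 call with spleen ZsGreen+ replicate 2 left out (0.0886). Among ZsGreen− cells edgeR called 0 of the 8 (median -0.08) and DESeq2 called 1. By edgeR 1 of the 8 had an unadjusted p under 0.05, against 2555 of the 14418 genes tested. The part of these cell types in the Cxcr5 and Icos results was not tested.

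The experiment term was called for 5 of the 6 genes, against 71.1% of all genes tested. Icos was higher in experiment 2 by 1.49 ± 0.16 on the log2 scale, Cd40lg by 1.20 ± 0.14, Pdcd1 by 1.12 ± 0.23 and Cd200 by 0.71 ± 0.17, with edgeR adjusted p of 2.55e-06, 9.88e-06, 0.00217 and 0.00538. Btla was lower in experiment 2, with -0.37 ± 0.12 (edgeR adjusted p = 0.019). Cxcr5 had -0.01 ± 0.11 (edgeR adjusted p = 0.952). Such a term adds the preparation, the mice and the sequencing of an experiment together, and these cannot be told apart. It also depends on the scaling. Without TMM factors Cxcr5 was lower in experiment 2 in every group. Experiments 1 and 2 then had 786 and 614 CPM in Peyer's patch ZsGreen+ and 942 and 671 CPM in ZsGreen− libraries. The spleen values were 152 and 85.6 CPM in ZsGreen+ and 431 and 255 CPM in ZsGreen− libraries.

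Of 7 binding partners of the 6 proteins, Tnfrsf14, which encodes the BTLA ligand HVEM, had calls in the same 3 contrasts as Cxcr5. It fell in spleen ZsGreen+ cells (-0.72 ± 0.16, edgeR adjusted p = 0.0145) and had 0.02 in Peyer's patch (adjusted p = 0.988). It rose in Peyer's patch over spleen in both ZsGreen+ (1.33, edgeR adjusted p = 0.0002) and ZsGreen− cells (0.59, adjusted p = 0.044). Cd274, the gene of the PD-1 ligand PD-L1, was lower in Peyer's patch than in spleen among ZsGreen− cells (-0.86, edgeR adjusted p = 0.0334). Pdcd1lg2, the other PD-1 ligand gene, Icosl and Cd200r1 were called in no contrast. The Tnfrsf14 call in the spleen sort was lost with spleen ZsGreen+ replicate 1 or 2 or spleen ZsGreen− replicate 1 left out (highest adjusted p 0.201), and its ZsGreen− tissue call with any library but Peyer's patch ZsGreen+ replicate 2 left out (highest 0.334). The Cd274 call was lost when Peyer's patch ZsGreen− replicate 1 or 2 or spleen ZsGreen− replicate 2 was left out (highest 0.315). Cd40 had at most 1.18 CPM and was not tested. Cxcl13, the CXCR5 ligand, was listed in experiment 2 only, with 15 and 5 counts in Peyer's patch ZsGreen+ and ZsGreen− cells, and 3 and 0 counts in spleen ZsGreen+ and ZsGreen− cells.

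Among 10 other costimulatory and inhibitory receptors and ligands, 2 rose and 1 fell in spleen ZsGreen+ cells, with a list median of 0.19. The median over all genes tested lay between -0.03 and 0.01 in every contrast. For this list and those that follow, the background is the share of all genes tested that was called. It was 8.62% in the spleen sort, 0.437% in the Peyer's patch sort, 12.7% in the ZsGreen+ and 5.49% in the ZsGreen− tissue contrast. Cd160, an HVEM-binding receptor, rose by 1.08 (edgeR adjusted p = 0.00333). Tnfsf14, which encodes the HVEM ligand LIGHT, rose by 0.68 (adjusted p = 0.0168). Cd27, the receptor for CD70, fell by 1.90 (adjusted p = 8.96e-05). Tnfsf14 lost its call with any of the 4 spleen libraries left out (highest adjusted p 0.177). In Peyer's patch edgeR and DESeq2 called 0 between the sorts (median -0.08). By edgeR 1 of the 10 had an unadjusted p under 0.05, against 1172 of the 14418 genes tested. In Peyer's patch over spleen the list had 1 higher and 2 lower in ZsGreen+ cells (median -0.06) and 1 higher and 1 lower in ZsGreen− cells (median -0.18). Cd226, an activating receptor for CD155, fell in ZsGreen+ (-2.96, edgeR adjusted p = 1.64e-05) and in ZsGreen− cells (-2.46, adjusted p = 7.09e-05). Cd27 rose in ZsGreen+ cells (1.72) while Tnfsf14 fell (-0.84), and Cd160 rose in ZsGreen− cells (1.10). Leaving out Peyer's patch ZsGreen+ replicate 1 ended that Tnfsf14 call (adjusted p = 0.0765), and leaving out Peyer's patch ZsGreen− replicate 2 ended that of Cd160 (0.0629).

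Of 18 genes that act just behind these receptors 1 rose and 3 fell in spleen ZsGreen+ cells (median -0.18). Ptpn11, which encodes the SHP-2 phosphatase bound by PD-1 and BTLA, fell by 0.93 (edgeR adjusted p = 0.0143), and Pik3ip1, a PI3K inhibitor, by 1.28 (adjusted p = 0.00354). Rasa1, a Ras GTPase activator, fell by 0.54 (adjusted p = 0.0406), and the adaptor gene Dok2 rose by 0.83 (adjusted p = 0.00241). Ptpn11 lost its call with spleen ZsGreen+ replicate 1 or 2 or spleen ZsGreen− replicate 2 left out (highest adjusted p 0.127), and Rasa1 with any spleen library left out (highest 0.238). In Peyer's patch edgeR and DESeq2 called 0 between the sorts (median -0.09). By edgeR 2 of the 18 had an unadjusted p under 0.05, against 1172 of the 14418 genes tested. Over spleen, Peyer's patch ZsGreen+ cells had 3 of these genes higher and 3 lower (median -0.09), and ZsGreen− cells 0 higher and 3 lower (median -0.16). Dok2, the SHP-1 gene Ptpn6 (-0.71 and -0.62) and Dock2, a Rac activator in migrating lymphocytes (-0.95 and -0.64), fell in both ZsGreen+ and ZsGreen− cells. In ZsGreen− cells the calls of Ptpn6 and Dock2 were each lost for 3 of the 8 libraries left out, Peyer's patch ZsGreen− replicates 1 and 2 for both genes, with spleen ZsGreen− replicate 2 for Ptpn6 and replicate 1 for Dock2 (highest adjusted p 0.169 and 0.224). In ZsGreen+ cells Ptpn6 lost its call with spleen ZsGreen+ replicate 1 left out (0.0737). Pik3ip1 rose in ZsGreen+ cells (1.12, edgeR adjusted p = 0.00437).

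Among 17 transcription factor genes that act on Tfh receptors or Tfh identity, 2 rose and 6 fell in spleen ZsGreen+ cells, with a median of -0.41. Id3, an E protein inhibitor (-1.62, edgeR adjusted p = 0.000624), Klf2, a repressor of the Tfh program (-1.09, adjusted p = 0.00381), and Tcf7, the TCF-1 gene (-1.25, adjusted p = 0.00541), fell. Id2, another E protein inhibitor, rose by 1.01 (adjusted p = 0.00898). Bcl6, the defining Tfh factor, had -0.92 (edgeR adjusted p = 0.0921), and Ascl2, an activator of Cxcr5 in mouse T cells, had -2.21 ± 0.74 (adjusted p = 0.185). Over the 16 alternatives Bcl6 ran from -1.42 to -0.45 and Ascl2 from -3.04 to -1.21. Both passed by DESeq2 (0.0133 for Bcl6 and 0.0013 for Ascl2) and with spleen ZsGreen− replicate 1 left out (0.00102 and 0.016). Bcl6 also passed with Peyer's patch ZsGreen+ replicate 2 left out (0.0327), and Ascl2 in a fit with no robust dispersion (0.0373). Id2 lost its call with spleen ZsGreen+ or ZsGreen− replicate 2 left out (highest adjusted p 0.0705), and Tcf7 with spleen ZsGreen+ replicate 2 left out (0.127). In Peyer's patch edgeR called 0 of the 17 between the sorts and DESeq2 1 (median -0.06). By edgeR 6 of the 17 had an unadjusted p under 0.05, against 1172 of the 14418 genes tested. Over spleen, Peyer's patch ZsGreen+ cells had 4 higher and 4 lower (median 0.13), with Bcl6 (1.49, edgeR adjusted p = 0.0111) and Tox2 (1.02) among the higher and Klf2 (-3.03), Id2 (-2.41) and Prdm1 (-2.63), the Blimp-1 gene, among the lower. ZsGreen− cells had 0 higher and 4 lower (median -0.40), namely Klf2 (-3.32), Prdm1 (-3.29), Id2 (-1.34) and Bach2 (-1.24). The Tox2 call was lost with spleen ZsGreen+ replicate 2 left out (0.0638), and that of Bach2 with Peyer's patch or spleen ZsGreen− replicate 1 left out (highest 0.275).

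**Figure D4:**
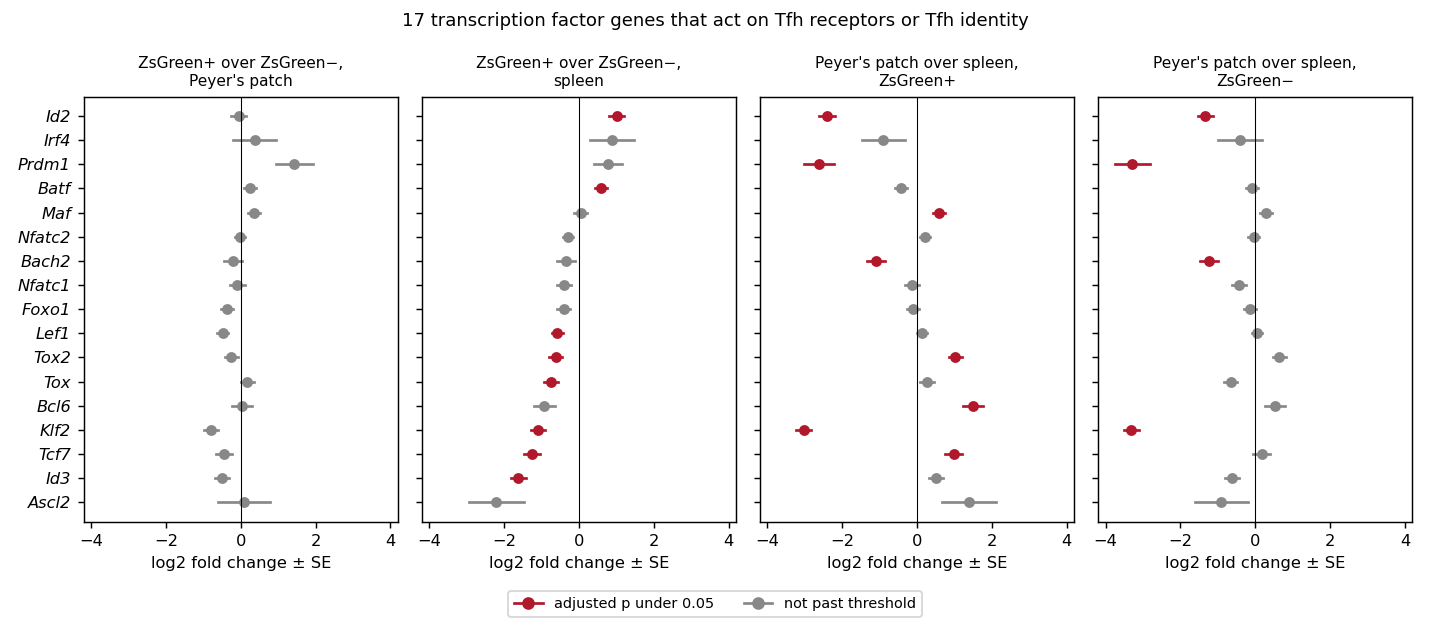
Log2 fold change with its SE (x axis) of 17 transcription factor genes (rows, ordered by the spleen sort contrast) in the 2 sort and 2 tissue contrasts, in red where the adjusted p was under 0.05. Id2 is called higher in spleen ZsGreen+ cells and lower in Peyer's patch than in spleen in both ZsGreen+ and ZsGreen− cells, and 0 genes are called in the Peyer's patch sort contrast.

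Of 9 other receptors that place T cells in or outside the follicle, Ccr6, the CCL20 receptor, rose in ZsGreen+ cells of spleen (3.88, edgeR adjusted p = 5.51e-06) and of Peyer's patch (2.31, adjusted p = 0.000613). Ccr7, which holds cells in the T zone, fell in ZsGreen+ cells of spleen (-1.88, edgeR adjusted p = 0.00228), as did S1pr2, which retains cells in the germinal centre (-1.19, adjusted p = 0.00874). In ZsGreen+ cells of spleen the receptors for the follicle (Cxcr5) and the T zone (Ccr7) were thus both lower. The list had 1 higher and 3 lower in spleen (median -0.34), and 1 and 1 in Peyer's patch (median -0.37). Of all genes tested 8.62% were called in the spleen sort and 0.437% in the Peyer's patch sort. Over spleen, Peyer's patch ZsGreen+ cells had 1 of the 9 higher and 6 lower (median -1.51), and ZsGreen− cells 0 higher and 5 lower (median -0.89). S1pr1, the egress receptor, fell in both ZsGreen+ (-1.93) and ZsGreen− cells (-1.92), and so did Cxcr3 (-1.51 and -1.36). Calls were lost for S1pr2 with spleen ZsGreen+ replicate 2 left out (adjusted p = 0.0767) and for Cxcr3 in ZsGreen− cells with Peyer's patch ZsGreen− replicate 1 or 2 left out (highest 0.139).

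Profiles were compared by the root-mean-square difference in log2 CPM over the 8 libraries, after each gene's mean within each experiment was subtracted, among 8960 candidate genes of at least 10 CPM. Nearest to Cxcr5 were Susd4 (0.150), Jdp2 (0.194) and Setd4 (0.206), where the median candidate lay at 1.10. Between the members themselves Cd40lg and Btla were the closest pair (0.274) and Cxcr5 and Cd200 the farthest (1.42). The median candidate lay at 0.272 from Cd40lg and 0.313 from Btla, so even the closest pair was about as far apart as that. Cxcr5 lay nearest to Pdcd1 among the members, at 0.711, farther from Pdcd1 than the median candidate (0.548). Pdcd1 had Tmem181b-ps (0.0783), Lpin2 (0.128) and Tmem140 (0.142) as its nearest genes, and Icos had 2700097O09Rik (0.148), Cep43 (0.152) and Mturn (0.153). Nearest to Cd40lg were Ero1b (0.0840), Zfand6 (0.0858) and Slc17a5 (0.0859), and nearest to Btla were Trim32 (0.0234), Nsd1 (0.0516) and Wdr13 (0.0545). For Cd200 the 3 genes were Ifi203 (0.112), Gvin-ps7 (0.147) and Gbp2 (0.167). These distances describe 8 libraries that share experiments and carry no test.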

How the data were processed

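Bulk mRNA was measured in 8 libraries, 2 in each of 4 groups. The raw tables deposited by the authors hold estimated counts per gene (expected counts), since 17.6% to 29.9% of a library's values were not whole numbers (tolerance 0.01). The deposited normalized tables hold a signal, these counts times 1 factor per library (0.765 to 1.58). Per the submitters' processing notes, Partek, STAR and DESeq2 were used with mm39, and no versions or roles are given. Counts were rounded, and the 16735 genes in both experiments' tables were used. edgeR 4.0.16 (R 4.3.3) tested the 14418 that passed filterByExpr (minimum count 10, minimum total 15), with TMM scaling and a robust quasi-likelihood fit of 4 group means and an experiment term, leaving 3 residual degrees of freedom. P-values are two-sided, with Benjamini-Hochberg adjustment over all genes tested and a threshold of 0.05. The SE was derived from the F statistic. Log2 CPM used a prior count of 2.

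The experiment term pairs replicates by the labels, and deviations from group means correlated between same-numbered libraries with r from 0.825 to 0.867 (6 pairs of groups, across genes). Nothing says that replicates are separate animals, so p-values reflect only how far these samples vary, in part perhaps technically. Precision is limited by 2 libraries in each group and 3 residual degrees of freedom. Total counts of 10009823 to 15323743 a library limit it further for genes of low count. The members had 821 to 17223 counts in a library. Alternatives were no replicate block, RLE scaling, DESeq2 1.42.0, 2 other count filters, a fit without robust dispersion, limma 3.58.1 on log2(signal + 1), a fit of 4 libraries, and each library left out.

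The members and lists were chosen with earlier results of these data known. The text names the 6 members, their 7 binding partners, up to 4 genes with the smallest p among those called in each other list and contrast, and the 3 nearest profiles of each member. Bcl6, Ascl2, Ptpn11, Bcl9l, Gm37039 and the cell type markers were named in addition. Some genes of the lists enter the counts but are not reported here. Exon lengths come from GENCODE vM21, and gene coordinates from the files.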

Additional observations from a re-analysis of the deposited data

How the results depend on the processing

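Over 16 alternative settings, 8 of which left out 1 library each, the 30 member results gave 474 values. Of these 414 kept their direction and side of the threshold, 9 lost the call, 27 gained one and 24 took the other sign. Without the replicate block that pairs libraries by experiment, edgeR called 0 members and 0 genes in every contrast (79 to 568 genes and at most 1 member at an unadjusted p under 0.05), with Cxcr5 at -1.70 in the spleen sort, 2.47 in the ZsGreen+ and 1.08 in the ZsGreen− tissue contrast and Icos at 0.64 in the ZsGreen+ tissue contrast, while the Icos difference of the sorts was 0.0060 and Pdcd1 in the ZsGreen− tissue contrast -0.10. The Cxcr5 difference of the sorts was called by DESeq2 (-1.35), with no low count filter (-1.39) and with at least 50 counts in every library of a group (-1.41), so that 1 member was called in each. Icos in the ZsGreen+ tissue contrast was not called in the fit of only 4 libraries (0.81), and DESeq2 called Icos in ZsGreen− cells (0.71). DESeq2 called 2, 4 and 3 members in the spleen sort, ZsGreen+ tissue and ZsGreen− tissue contrasts, and the fit with no robust dispersion and that of 4 libraries each called 2 in the last. Of all 14418 genes DESeq2 called 814 higher and 680 lower in the spleen sort. It called 793 higher and 1306 lower in the ZsGreen+ tissue contrast, and 357 higher and 735 lower in the ZsGreen− tissue contrast. Over all genes, DESeq2 called 147 and the fit of 4 libraries 119 in the Peyer's patch sort, against 63, and the difference of the sorts had 144 by DESeq2, 47 with no filter and 8 with no robust dispersion, against 14. Leave-one-out values ran from -1.55 to -1.23 for the Cxcr5 difference of the sorts and from 0.42 to 1.13 for Icos in the ZsGreen+ and from 0.50 to 0.92 in the ZsGreen− tissue contrast. They crossed 0 in the Peyer's patch sort for Icos (-0.041 to 0.69), Cd40lg (-0.27 to 0.13), Btla (-0.23 to 0.31) and Cd200 (-0.29 to 0.18), in the spleen sort for Cd40lg (-0.13 to 0.47) and Cd200 (-0.77 to 0.20), and in the difference of the sorts for Icos (-0.39 to 0.29), Cd40lg (-0.072 to 0.53) and Cd200 (-0.70 to 0.26). In the Peyer's patch sort those of Tnfrsf14, the Btla ligand, ran from -0.10 to 0.12. Values also crossed 0 for Cd40lg in the ZsGreen+ tissue contrast (-0.45 to 0.14), and in ZsGreen− cells for Pdcd1 (-0.46 to 0.73), Cd40lg (-0.15 to 0.32) and Btla (-0.26 to 0.29). Members called with 1 library left out were 1 to 2 in the spleen sort, 0 to 2 in the difference, 1 to 3 in the ZsGreen+ and 1 to 2 in the ZsGreen− tissue contrast, and genes called were 7 to 88 in the Peyer's patch sort, 487 to 1357 in the spleen sort, 2 to 93 in the difference, 863 to 1965 in the ZsGreen+ and 313 to 893 in the ZsGreen− tissue contrast. Of 62 called results of list genes, binding partners and markers examined, 37 stayed called with each library left out in turn. A fit with 1 library left out assumes that the lone library of its group varies like the others. The cause of these shifts was not tested. RLE scaling moved the median of all genes by under 0.1 on the log2 scale in each contrast. With no TMM factor Cxcr5 had 152 and 85.6 CPM in spleen ZsGreen+ libraries, against 431 and 255 CPM in spleen ZsGreen− libraries.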
